A study of Rattus norvegicus with 14 samples.

Results

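The genes described here are 8 members of the ERK cascade, namely the kinases Braf, Map2k1, Map2k2, Mapk3, Rps6ka1, Rps6ka2 and Rps6ka3 and the transcription factor gene Elk1. They were chosen by symbol, with earlier results of these data known. Each had 1 row among the 18239 genes listed for hippocampal neurons and 1 among the 31791 listed for hippocampal astrocytes. Both cell types were primary cultures from the hippocampus of embryonic day 18 Sprague Dawley rats. Both were held in Aging Model (AM) medium, which has less supplement for neurons and charcoal-stripped serum for astrocytes, so the vehicle group carried that deprivation as well. Neurons were in AM medium for 4 h and were then given vehicle (AM-Veh, ethanol) or 100 nM allopregnanolone (AM-Allo) for 16 h, with 4 libraries in each group. Astrocytes were in AM medium for 24 h and were then treated in the same manner for 24 h, with 3 libraries in each group. Astrocyte cultures were mixed glia enriched by shaking. The labels do not state whether libraries came from separate animals or dissections, so p-values measure the spread between these libraries, which may in part be technical.

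Allopregnanolone (Allo) is a neurosteroid that potentiates the GABA-A receptor. In immature neurons, whose chloride is high inside, opening of that receptor can depolarize the cell and admit calcium through L-type channels, and calcium is one of the inputs to Ras and the ERK cascade. The cascade is a relay of phosphorylation steps, in which a Raf kinase such as BRAF phosphorylates MEK1 and MEK2 (encoded by Map2k1 and Map2k2), and MEK phosphorylates ERK1 (encoded by Mapk3). Active ERK phosphorylates the ribosomal S6 kinases RSK1, RSK2 and RSK3 (encoded by Rps6ka1, Rps6ka3 and Rps6ka2) and the ternary complex factor ELK1, which acts with serum response factor on immediate-early genes. The relay is switched by phosphorylation, which RNA levels do not report, and in neurons it is known for its part in synaptic plasticity.

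Values are normalized counts, which are the estimated read counts of a gene divided by the factors that the authors derived for library depth. Libraries had about 19700000 to 24900000 reads on genes in neurons and 22100000 to 28500000 in astrocytes, as judged from the step between their lowest values. The neuronal markers were clearly present in the neuron libraries (7 of 8 listed genes had a row), where their summed normalized count was 56274 to 63130 in AM-Veh and 60219 to 67324 in AM-Allo. These cultures also held much astrocyte RNA, since the 8 astrocyte markers summed to 197153 to 256022 in AM-Veh and 196206 to 248608 in AM-Allo, with Gfap alone at a mean of 94233 in AM-Veh. The 8 oligodendrocyte lineage markers summed to 50128 to 54148 and 50989 to 58031, and the microglial and endothelial lists to at most 166 and 35.9 in any neuron library. In astrocyte libraries the astrocyte markers summed to 235704 to 248620 in AM-Veh and 234790 to 239149 in AM-Allo, and the neuronal list summed to 24794 to 26305, most of it Stmn2, with Rbfox3 and Nefl at means of 1.47 and 0.982. Mesenchymal markers summed to 60498 to 71815 in the astrocyte libraries and to 625 to 2557 in the neuron libraries. The 8 microglial markers summed to 1239 to 1598 in the astrocyte libraries. There the oligodendrocyte lineage list summed to 6038 to 6389, with Sox10 and Mbp at means of 1.22 and 9.65. In such bulk libraries, fewer cells of a type and less RNA per cell cannot be told apart.

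In hippocampal neurons, Mapk3, Rps6ka1 and Elk1 rose in AM-Allo at an unadjusted p under 0.05 by limma, by 10.2%, 27.9% and 18.2%, and 0 of the 8 genes fell. The other 5 genes, which are the Raf and MEK kinases, Rps6ka2 and Rps6ka3, did not pass. Of the 15314 genes tested in neurons, 5.69% passed that threshold, with 3.21% of the genes tested as rises and 2.48% as falls. With p-values adjusted over the whole table (Benjamini-Hochberg, limma), 0 of the 8 passed, and 4 genes (0.0261%) of the table did. On the authors' variance-stabilized (VST) values, 4 of the 8 passed unadjusted, Rps6ka2 being the fourth, where 14.4% of all genes did, and 3 of the 8 passed after adjustment, where 1.03% did (adjusted p = 0.0257 for Mapk3, 0.0427 for Elk1 and 0.0434 for Rps6ka2 by limma). That VST fit had no added covariate, and it moved the unadjusted p of Rps6ka2 by limma from 0.0647 to 0.000369. In astrocytes 1083 genes passed unadjusted on VST values, beside 1078 on normalized counts. Why VST values passed so many more genes in neurons was not tested, so these adjusted p-values carry that limit. The median log2 fold change of the 8 genes on normalized counts was 0.087, beside a median of −0.0015 over all genes tested. Mapk3, Rps6ka1 and Elk1 had been named by the study from these same libraries, so their p-values are not independent evidence of a rise.

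Mapk3, which encodes the kinase ERK1, had normalized counts of 2132, 2133, 2087 and 2139 in AM-Veh libraries 1-1, 1-2, 2-1 and 2-2, and of 2230.1, 2353, 2412.5 and 2362 in the AM-Allo libraries of the same numbers. All AM-Allo libraries lay above all AM-Veh libraries, a pattern that 2.06% of the genes tested in neurons showed. The coefficient of variation was 1.14% among the AM-Veh libraries and 3.31% among the AM-Allo libraries. The log2 fold change was 0.14 (standard error 0.033, 95% interval 0.066 to 0.21, adjusted p = 0.444 by limma). By its unadjusted p of 0.00169, Mapk3 ranked 57 among the 15314 genes tested. Exact permutation of the libraries, two-sided on the mean log2 value, gave 0.0286, the smallest p that 4 libraries against 4 allow.

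Elk1, the gene of the ERK-regulated transcription factor ELK1, had normalized counts of 814, 803, 792.5 and 735 in AM-Veh and of 871.5, 925, 902 and 1018 in AM-Allo, in the same order of libraries. The groups did not overlap, and the library pair numbered 2-2 held both the lowest AM-Veh and the highest AM-Allo count. The log2 fold change was 0.24 (standard error 0.0565, 95% interval 0.11 to 0.36, adjusted p = 0.442 by limma), with an unadjusted p of 0.00156, rank 54 among the genes tested. Here too, the exact permutation test, again without regard to the library numbers, gave its smallest p of 0.0286.

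The RSK genes encode kinases that ERK activates and that phosphorylate ribosomal protein S6, CREB and other targets. Rps6ka1, for RSK1, had normalized counts of 189, 142, 157 and 138.5 in AM-Veh and of 190.3, 202, 181.5 and 227 in AM-Allo. The high count in AM-Veh 1-1 lay above that of AM-Allo 2-1, and the groups otherwise did not overlap. The log2 fold change of 0.36 was the largest of the 8 genes (standard error 0.12, 95% interval 0.10 to 0.62, adjusted p = 0.671 by limma, unadjusted p = 0.0107), on counts that were also the most variable, with a coefficient of variation of 14.6% in AM-Veh. The exact permutation p, also without regard to the library numbers, was 0.0571.

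Rps6ka2, for RSK3, had normalized counts of 1622, 1657, 1427 and 1478 in AM-Veh and of 1790.3, 1744, 1598 and 1592 in AM-Allo. The libraries numbered 2-1 and 2-2 were lower than those numbered 1-1 and 1-2 in both groups. Library numbers have a first and a second part, and within each first number the AM-Allo libraries lay above the AM-Veh libraries, but across the whole set the groups overlapped. Without a block the log2 fold change of 0.12 (95% interval −0.0089 to 0.25) did not pass the threshold (unadjusted p = 0.0647 by limma). With the first part as a replicate block, it passed at an unadjusted p of 0.00155, with an adjusted p of 0.113, and with the whole number as a replicate block the unadjusted p was 0.00340. Blocked by the first part, 4 of the 8 genes passed, all higher, where 11.0% of all genes tested passed (5.76% as rises). Of adjusted p-values under 0.05 there were then 0 among the 8, where 0.679% of all genes had one, with 0.0583 for Elk1 and 0.0584 for Mapk3. Blocked by the whole number, the same 4 genes passed unadjusted, where 10.7% of all genes did, and 0 adjusted, where 0.607% did. Rps6ka3, for RSK2, ranged from 1323 to 1387 in AM-Veh and from 1314 to 1529.9 in AM-Allo. Its log2 fold change was 0.052 (95% interval −0.055 to 0.16, unadjusted p = 0.306), and the high AM-Allo count came from library 2-2.

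The kinases above ERK did not pass the threshold in neurons. Braf, for the Raf kinase that starts the relay, ranged from 422 to 503 in AM-Veh and from 397 to 462 in AM-Allo, a log2 fold change of −0.042 (95% interval −0.21 to 0.13). Map2k1, for MEK1, ranged from 1674 to 1826 and from 1692 to 1742 (log2 fold change −0.022, 95% interval −0.10 to 0.057). Map2k2, for MEK2, ranged from 2697 to 2908 and from 2734 to 2852.5 (log2 fold change −0.0072, 95% interval −0.080 to 0.065). The unadjusted p-values by limma were 0.599, 0.547 and 0.830. AM-Allo and AM-Veh libraries overlapped for all 3 genes, and the interval was narrow for the MEK genes and wider for Braf.

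**Figure D1:**
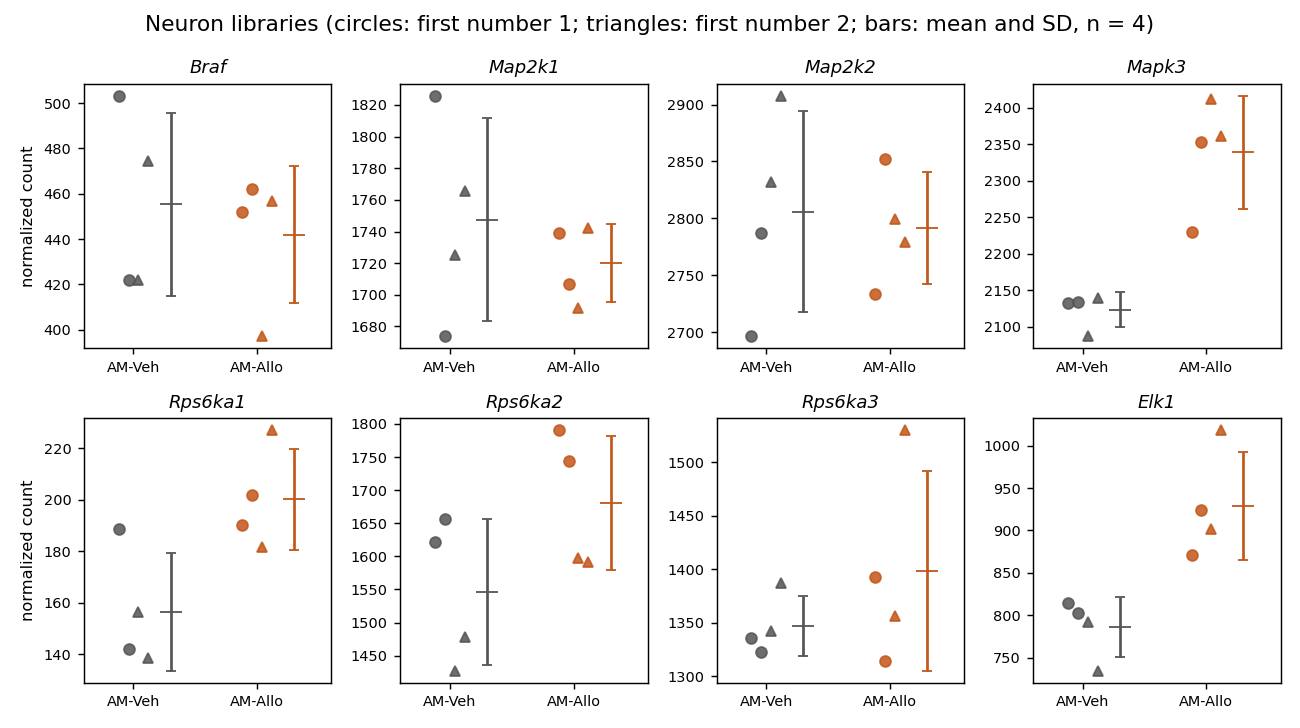
Normalized counts of the 8 genes in the neuron libraries, with the group on the horizontal axis, 1 symbol per library (circles for first number 1, triangles for first number 2) and the mean and SD (n = 4) beside them. The vertical axes do not start at 0 and differ between panels. The AM-Allo libraries of Mapk3 (2230.1 to 2412.5) and Elk1 (871.5 to 1018) lie above their AM-Veh libraries (2087 to 2139 and 735 to 814), and the circles of Rps6ka2 lie above its triangles in each group.

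The neuron libraries fell into sets by the first part of their replicate number, and the Allo difference was therefore also read within each set, from 2 libraries against 2 and without a test. The log2 fold changes in libraries 1-1 and 1-2 and in libraries 2-1 and 2-2 were 0.103 and 0.176 for Mapk3, 0.151 and 0.328 for Elk1, 0.257 and 0.460 for Rps6ka1 and 0.108 and 0.135 for Rps6ka2. For these 4 genes AM-Allo lay above AM-Veh without overlap in both sets, and the share of all genes tested that did so was not counted. Each of the 4 AM-Allo libraries was therefore also above the AM-Veh library of its own number. The lowest such difference was that of Rps6ka1 for number 1-1, at 0.011 on the log2 scale, and its highest was 0.708. Map2k2 had opposite signs in the sets (0.027 and −0.041). The summed astrocyte markers also differed between the sets, with 196206 to 208163 in libraries numbered 1-1 and 1-2 and 233518 to 256022 in libraries numbered 2-1 and 2-2. The part of these markers in the members' values was not tested. Between the AM-Allo and AM-Veh groups the summed astrocyte markers differed less, with a ratio of the group means of 0.976. That ratio was 1.06 for the neuronal markers, 4 of the 7 neuronal genes being higher in AM-Allo. Map2 and Tubb3, for neuronal cytoskeletal proteins, were higher by 7.22% and 15.4%. For both, every AM-Allo library lay above every AM-Veh library, as for 2.06% of all genes tested in neurons. The mean of Nefl differed by −14.7%, with overlap. The neuronal sum was 63130 and 58973 in AM-Veh and 62262 and 60219 in AM-Allo for first number 1, which overlapped, and 61021 and 56274 against 67324 and 65048 for first number 2, which did not. The part of the neuronal markers in the rises was not tested either.

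In hippocampal astrocytes, 0 of the 8 genes passed an unadjusted p of 0.05 by limma, where 7.01% of 15380 genes tested did, and 0 passed after adjustment, where 1 gene of the table (0.00650%) did. The median log2 fold change of the 8 was −0.006, beside 0.0014 over all genes tested. Map2k1 had normalized counts of 1620.2, 1647 and 1625 in AM-Veh and of 1693, 1688 and 1749 in AM-Allo libraries 1, 2 and 3. All AM-Allo counts lay above all AM-Veh counts, as they did for 6.42% of all genes tested in astrocytes. Its log2 fold change was 0.068 (95% interval −0.019 to 0.16, unadjusted p = 0.115), and the two-sided exact permutation p was 0.100, the smallest that 3 libraries against 3 allow.

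Elk1 was at 879, 873 and 874 in AM-Veh astrocytes and at 876, 940.4 and 997 in AM-Allo astrocytes. Library 1 of AM-Allo lay among the AM-Veh counts, and libraries 2 and 3 lay above them. The log2 fold change was 0.097 (95% interval −0.025 to 0.22, unadjusted p = 0.109 by limma). With 1 library left out it ranged from 0.052 to 0.146 and passed the threshold in 1 of 6 fits. That fit was without AM-Allo library 1 (unadjusted p = 0.0284 by limma), where 1280 of 15374 genes tested passed. The highest unadjusted p by limma was 0.382, without AM-Allo library 3. Mapk3 was at 5415, 5618 and 5442 in AM-Veh and at 5256, 5459.7 and 5716 in AM-Allo, with overlapping groups and a log2 fold change of −0.0044 (95% interval −0.087 to 0.078). That interval ended below the 0.14 estimated in neurons but overlapped the 95% interval of Mapk3 in neurons.

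The other 5 genes also overlapped between the astrocyte groups. Rps6ka2 was the least changed of the RSK genes, at 1671 to 1739 in AM-Veh and 1684 to 1714 in AM-Allo (log2 fold change −0.0070, 95% interval −0.094 to 0.080). Rps6ka3 was at 1208 to 1263 and 1113 to 1251 (−0.036, interval −0.15 to 0.0805), and Rps6ka1 at 129 to 145 and 121.5 to 154.5 (−0.057, interval −0.35 to 0.23). The interval of Rps6ka1 was the widest, and a change within it was not detectable at this spread. Braf was at 602 to 673 in AM-Veh and 584 to 619 in AM-Allo (log2 fold change −0.081, interval −0.22 to 0.056), and Map2k2 at 1591 to 1805 and 1639 to 1821 (0.037, interval −0.082 to 0.16).

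**Figure D2:**
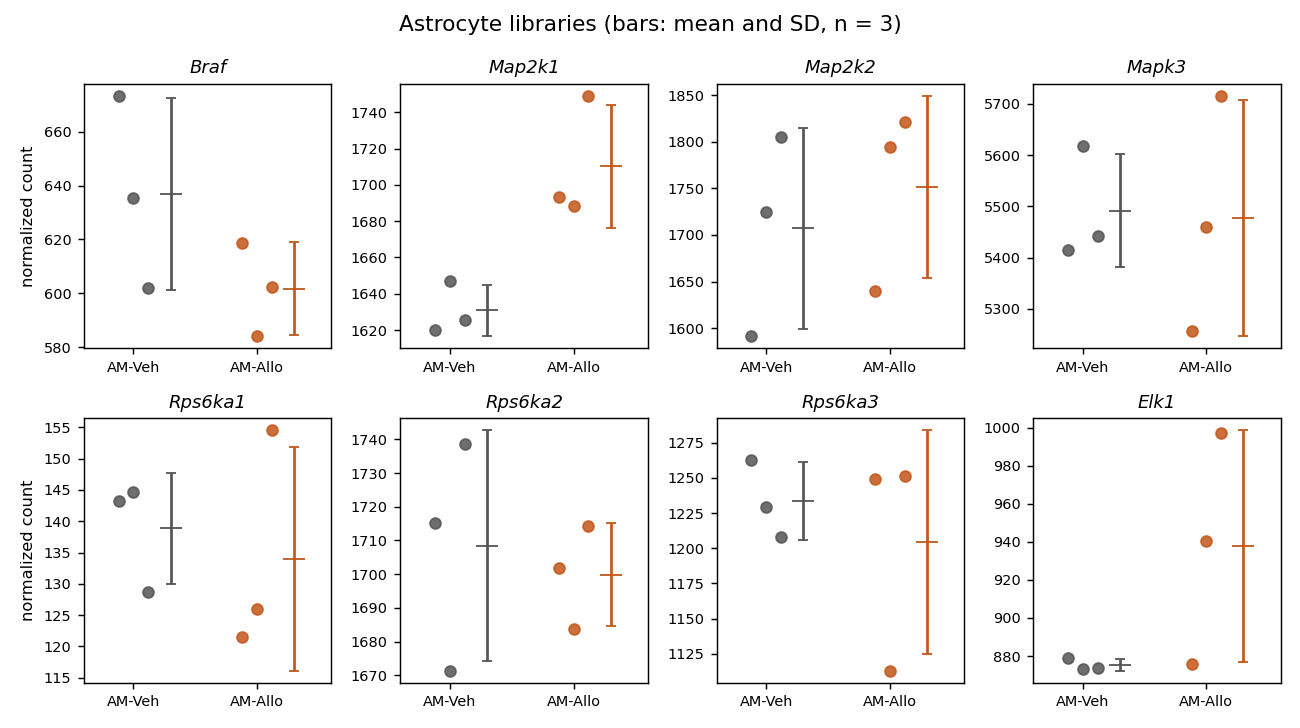
Normalized counts of the 8 genes in the astrocyte libraries, with the group on the horizontal axis, 1 circle per library and the mean and SD (n = 3) beside them. The vertical axes do not start at 0 and differ between panels. The groups overlap for every gene except Map2k1, whose AM-Allo libraries (1688 to 1749) lie above its AM-Veh libraries (1620.2 to 1647).

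Whether the Allo difference was unlike between the cell types was tested as the difference of the log2 fold changes. On normalized counts, the separate scaling of each table cancels in that difference. Treatment lasted 24 h in astrocytes and 16 h in neurons, and this cannot be told apart from the cell type. Of the 8 genes, 2 passed an unadjusted p of 0.05 by limma, where 6.76% of the 14385 genes tested in both tables did, and 0 genes of the table passed after adjustment. On VST values 4 of the 8 passed unadjusted, with Rps6ka2 and Elk1 in addition, where 11.5% of all genes did. That cancelling does not hold for VST values, which shrank changes unequally. Between normalized counts and VST values, the change of Rps6ka1 went from 0.359 to 0.130 in neurons and from −0.057 to −0.013 in astrocytes. The VST contrast therefore sets changes on unlike scales against each other. The log2 fold change of Mapk3 was lower in astrocytes than in neurons by 0.14 (difference −0.14, 95% interval −0.25 to −0.039, unadjusted p = 0.0107, adjusted p = 0.603). That of Rps6ka1 was also lower (difference −0.42, 95% interval −0.79 to −0.037, unadjusted p = 0.0336, adjusted p = 0.697). For Elk1 the difference was −0.14 (95% interval −0.32 to 0.033, unadjusted p = 0.105) and for Rps6ka2 −0.13 (95% interval −0.29 to 0.035, unadjusted p = 0.115), so neither gene passed on normalized counts without a block. With the first part of the neuron library number as a replicate block, a fit chosen after seeing the data, 3 of the 8 genes passed unadjusted, where 9.87% of all genes did. Rps6ka2 was the gene added (95% interval −0.22 to −0.035, unadjusted p = 0.00986, adjusted p = 0.338 by limma), and the unadjusted p of Elk1 was 0.0974. The largest difference in the other direction was that of Map2k1, at 0.091 (95% interval −0.013 to 0.19).

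**Figure D3:**
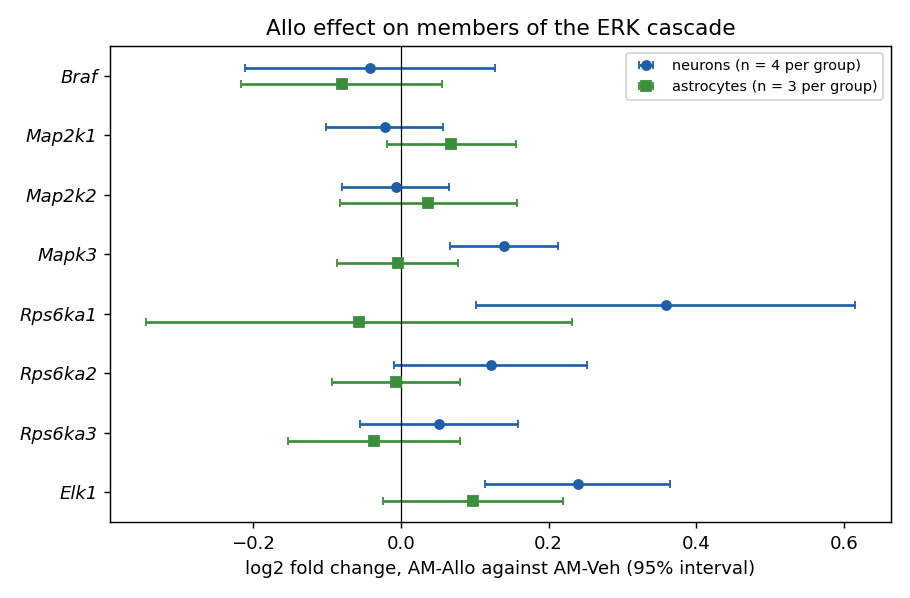
Log2 fold change of AM-Allo against AM-Veh on the horizontal axis for each of the 8 genes, with circles for neurons (n = 4 per group) and squares for astrocytes (n = 3 per group), and bars for the 95% interval from limma. The neuron intervals of Mapk3, Rps6ka1 and Elk1 lie above 0, and every astrocyte interval includes 0.

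Levels of the same gene in the neuron and astrocyte cultures are set side by side per 1000000 summed normalized counts of a library. The tables were normalized separately, and no test was made. By the markers above, the neuron cultures held much astrocyte RNA and the astrocyte cultures held mesenchymal and some microglial RNA. The levels are therefore those of mixed cultures and not of single cell types. Mapk3 was at 95.8 ± 1.66 (SD, n = 4) on this scale in AM-Veh neurons and 230.0 ± 3.76 (SD, n = 3) in AM-Veh astrocytes. Map2k2 lay the other way, at 126.6 ± 3.11 (SD, n = 4) in neurons and 71.5 ± 4.38 (SD, n = 3) in astrocytes. For the remaining genes the AM-Veh means in neurons and astrocytes were closer together, at 20.6 and 26.7 for Braf, 78.9 and 68.3 for Map2k1, 7.07 and 5.82 for Rps6ka1, 69.8 and 71.6 for Rps6ka2, 60.8 and 51.7 for Rps6ka3 and 35.5 and 36.7 for Elk1. In AM-Allo neurons Elk1 was at 41.9 ± 2.61 (SD, n = 4) and Mapk3 at 105.6 ± 3.20 (SD, n = 4). Lengths of the transcripts were not used here, so levels of different genes are not ranked.

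Promoter sequence, taken from RefSeq on the GRCr8 assembly, was matched by symbol for 7 of the 8 genes, all but Mapk3. The 250 bases before the annotated transcript start are shown for Elk1 and Rps6ka1, which rose in neurons, for Rps6ka2, which passed the threshold there with a replicate block or on VST values, and for Braf, which alone held the core of the cAMP response element. Capitals mark every match, on either strand, to the core of the cAMP response element (TGACGT), which CREB binds, the core of a site for ETS factors such as ELK1 (CCGGAA), the GC box (GGGCGG) or the CCAAT box (CCAAT). Matches of a motif that overlap each other were counted as 1.
Elk1 (chrX:3693115-3693364, + strand): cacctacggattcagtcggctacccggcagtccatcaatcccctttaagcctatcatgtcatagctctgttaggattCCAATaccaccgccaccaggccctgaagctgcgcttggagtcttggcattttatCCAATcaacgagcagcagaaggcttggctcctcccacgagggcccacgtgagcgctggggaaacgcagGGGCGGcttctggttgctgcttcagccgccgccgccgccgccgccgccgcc
Rps6ka1 (chr5:151402065-151402314, - strand): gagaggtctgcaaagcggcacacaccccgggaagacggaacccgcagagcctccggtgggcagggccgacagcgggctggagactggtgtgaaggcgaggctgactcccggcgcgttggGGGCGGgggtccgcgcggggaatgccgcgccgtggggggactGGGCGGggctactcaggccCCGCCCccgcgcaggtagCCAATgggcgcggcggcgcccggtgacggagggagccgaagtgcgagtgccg
Rps6ka2 (chr1:55318561-55318810, + strand): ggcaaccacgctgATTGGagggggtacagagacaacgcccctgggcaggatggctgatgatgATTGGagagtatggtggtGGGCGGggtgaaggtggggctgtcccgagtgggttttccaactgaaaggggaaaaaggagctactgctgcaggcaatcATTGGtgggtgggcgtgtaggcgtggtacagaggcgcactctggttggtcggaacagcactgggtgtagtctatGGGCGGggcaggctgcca
Braf (chr4:69476932-69477181, - strand): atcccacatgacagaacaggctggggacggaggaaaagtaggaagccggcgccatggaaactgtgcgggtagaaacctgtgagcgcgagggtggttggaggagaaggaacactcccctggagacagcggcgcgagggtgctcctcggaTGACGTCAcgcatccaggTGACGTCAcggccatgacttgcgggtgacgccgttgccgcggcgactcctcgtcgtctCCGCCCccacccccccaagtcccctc

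The promoter of Elk1 held 2 CCAAT boxes and 1 GC box, that of Rps6ka1 held 1 CCAAT box and 3 GC boxes, and that of Rps6ka2 held 3 CCAAT boxes and 2 GC boxes. The genes that did not pass held such boxes too, with 1 GC box in Braf, 2 in Map2k1, 2 in Map2k2 and 3 in Rps6ka3, and 1 CCAAT box in Map2k2. Among the 33469 promoters of the table, 34.0% held a CCAAT box and 30.5% a GC box in these 250 bases. The core of the cAMP response element occurred in 6.95% of all promoters and, among the 7 genes matched, in Braf alone, which held 2 matches that start 102 and 84 bases before the transcript start. The ETS core occurred in 12.6% of all promoters and in 0 of these 7. The share of G and C was 60.0% to 75.2% in the 7, beside a median of 51.2% over all promoters. Such matches describe the letters in this window and nothing further.

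The other genes of the pathway were read in 6 lists that hold 83 genes. These lists too were chosen with earlier results of these data known, so their counts of rises and falls are not independent evidence. In neurons 79 of them were tested, with 32 log2 fold changes above 0 and 47 below, and at an unadjusted p under 0.05 by limma 1 rose and 7 fell. Blocked by the first part of the library number, 6 rose and 14 fell. Over all genes tested, 3.21% rose and 2.48% fell without the block, and 5.76% and 5.24% with it. Above the cascade, 1 of 18 Ras inputs tested fell, the adaptor gene Shc3 (log2 fold change −0.17), and among the other Raf kinases, their scaffolds and regulators 1 of 9 rose, the scaffold gene Ksr2, which ranged from 126 to 158 in AM-Veh and from 161 to 181.5 in AM-Allo (log2 fold change 0.35). Shc3 and Rap1b were named by the study from the neuron libraries. Blocked, Rap1b, Shc1 and Hras also fell and Sos1 rose. Of 9 other kinases and transcription factors below ERK, such as Srf and the MSK genes Rps6ka4 and Rps6ka5, 0 passed (blocked, Rps6ka5 rose and Elk4 fell).

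Of the 7 falls in neurons, 6 lay among the feedback genes and the ERK-responsive transcripts, a split that may follow from how the lists were chosen. Of 15 phosphatases and feedback inhibitors tested, 3 fell and 0 rose, and blocked, 4 fell and 1 rose (Spry4 lower and Spry1 higher in addition). Dusp4, for a phosphatase of MAP kinases, ranged from 1020.0 to 1215.0 in AM-Veh libraries and from 636 to 785 in AM-Allo libraries (log2 fold change −0.68, adjusted p = 0.0235 by limma). Its adjusted p was 0.160 without limma's trend, and with 1 library left out it ranged from 0.0268 to 0.132 and was under 0.05 only without AM-Allo 2-1 or AM-Allo 2-2. Dusp5, for a nuclear phosphatase of ERK, ranged from 113 to 157.5 and from 75.5 to 108, with a log2 fold change of −0.61 and an adjusted p by limma of 0.442 (0.0465 blocked). Spred3, for an inhibitor of Ras signalling to ERK, ranged from 386 to 491 and from 304 to 336, with a log2 fold change of −0.48 and an adjusted p by limma of 0.195 (0.00512 blocked). For each of these genes all AM-Allo libraries lay below all AM-Veh libraries, as for 1.89% of all genes tested in neurons.

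Of 15 ERK-responsive transcripts tested in neurons, 3 fell and 0 rose, and the list's median log2 fold change was −0.105, beside −0.0015 over all genes. Blocked, 4 fell and 1 rose (Fos lower and Fosl2 higher in addition). Egr1, an immediate-early transcription factor gene and a known target of ELK1, had normalized counts of 447, 516, 725 and 708 in AM-Veh libraries 1-1, 1-2, 2-1 and 2-2 and of 458, 463, 415.5 and 419 in AM-Allo, a log2 fold change of −0.42 (adjusted p = 0.712 by limma). The groups overlapped in the libraries of first number 1 and lay apart in those of first number 2. Its relative Egr3 ranged from 94.3 to 125 in AM-Veh and from 73.5 to 87.2 in AM-Allo (log2 fold change −0.40). Fosb, for a partner in the AP-1 factor, was near the minimum level, with group means of 17.1 and 9.01 (log2 fold change −0.91), and its unadjusted p, 0.0171 over all libraries, was 0.0530 when AM-Veh 2-1 was left out. Of 13 kinases of the JNK, p38 and ERK5 cascades, 0 passed in neurons (blocked, Map2k6 rose and Mapk7 fell), and their median was −0.009. Other members of the ERK-responsive and feedback lists did not pass without a block and overlapped between the neuron groups, with AM-Allo to AM-Veh ratios of the means of 0.922 for Dusp6, 1.05 for Spry2, 0.977 for Etv5, 1.19 for Fosl2 and 1.26 for Egr2.

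In astrocytes 76 of the 83 genes were tested, with 42 log2 fold changes above 0 and 34 below, and 4 rose and 2 fell (unadjusted p under 0.05, limma), where 3.72% and 3.29% of all genes did (572 rises and 506 falls, and 427 and 668 with upper-quartile scaling). Of the ERK-responsive transcripts, Ier3, a stress-inducible immediate-early gene, had means of 1278 ± 28.8 and 1547 ± 206 (SD, n = 3 each) without and with Allo (log2 fold change 0.27, adjusted p = 0.448 by limma), and Etv4, for an ETS factor, rose as well (log2 fold change 0.17). The other rises were those of Dusp7 (log2 fold change 0.16) and Mapk11, for a p38 kinase (0.29), and the falls those of Rap1b (−0.10) and Rps6ka5 (−0.11). Of these 6 genes, Ier3 alone kept an unadjusted p under 0.05 without each library in turn. The highest p without 1 library was 0.154 for Etv4 (without AM-Veh 2 or 3 or AM-Allo 2), 0.209 for Dusp7 (without AM-Veh 2 or 3 or AM-Allo 3), 0.165 for Mapk11 (without AM-Veh 1 or 2 or AM-Allo 2), 0.263 for Rap1b (without AM-Veh 1 or 2 or AM-Allo 2 or 3) and 0.229 for Rps6ka5 (without AM-Veh 1 or AM-Allo 1 or 2). Dusp4, Dusp5 and Spred3, which fell in neurons, had log2 fold changes of 0.035, 0.12 and −0.12 in astrocytes, with unadjusted p-values of 0.780, 0.474 and 0.167.

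**Figure D4:**
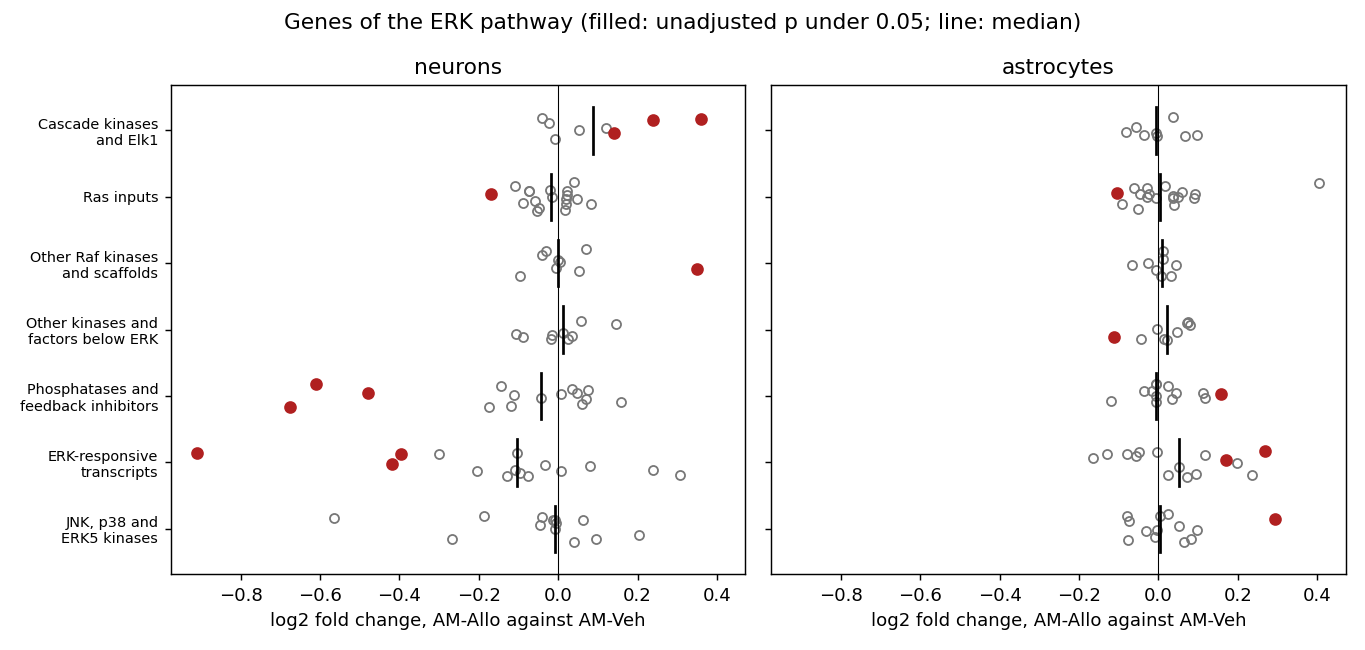
Log2 fold change of AM-Allo against AM-Veh on the horizontal axis for the genes of each list, 1 circle per gene tested, in neurons (left) and astrocytes (right), filled where the unadjusted p by limma was under 0.05, with the list's median as a line. In neurons 3 filled circles of the cascade genes lie to the right of 0, and 3 of the phosphatases and feedback inhibitors and 3 of the ERK-responsive transcripts lie to the left.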

How the data were processed

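RNA-seq values of 8 neuron and 6 astrocyte libraries were analysed, assigned to groups by their titles. Stranded libraries of poly(A) RNA were made by the authors, who estimated transcript counts with Salmon (0.14), summed them to genes and normalized them with DESeq2 (1.18.1). The deposited signal is that normalized count. A further deposited table per cell type holds variance-stabilized values, which only approach log2 and which the authors transformed before deposit, per the paper. In neurons, Rps6ka1 changed by 0.359 on log2 counts and 0.130 on these values, and Mapk3 by 0.140 and 0.113. Whole reads could not be recovered, since 69.7% to 95.0% of a library's low values were whole multiples of its step within 0.15 reads. Of the columns of per-sample values, 0 were left unused.

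The log2 of the normalized count plus 1 was used, so fold changes of low genes are understated. Genes with a mean of at least 10 were tested, separately for neurons and astrocytes, by limma 3.58.1 (eBayes with a trend) in R 4.3.3, with Benjamini-Hochberg adjustment over all genes tested. The difference between cell types was a contrast of 4 group means. The method was tested on simulated data.

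The members and the lists were chosen with earlier results of these data known. All 8 members are named, and from each other list up to 3 genes past an unadjusted p of 0.05 in a cell type, by size of change. After group means were removed, same-numbered neuron libraries correlated over genes at 0.229 to 0.296 and those that share only the first part at 0.185 to 0.236 (other pairs −0.319 to −0.150), so the numbers, and their first part, were taken to pair them, whereas those of astrocytes did not (−0.007 to 0.024). Mrtfa was matched by an older symbol. Lists, medians and counts carry no set test.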

Additional observations from a re-analysis of the deposited data

Results flagged for a closer look

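Among the members in neurons, single libraries stood apart from their group by Dixon's test at the 95% level in 2 cases. Mapk3 was at 2087 in AM-Veh 2-1, below the other AM-Veh libraries, and Braf was at 397 in AM-Allo 2-1, below the other AM-Allo libraries. Without AM-Veh 2-1, the log2 fold change of Mapk3 kept an unadjusted p under 0.05 (0.00646, the highest of the fits that leave out 1 library). The summed mesenchymal markers stood at 2557 in AM-Allo 1-1, above the other AM-Allo libraries (758 to 988), and their part in the members' values was not tested. Chance would place about 1 in 20 groups past this limit, and 28 groups were examined.

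The difference of the Allo effect between the cell types, astrocytes minus neurons, had an unadjusted p under 0.05 for Mapk3 (−0.14) and Rps6ka1 (−0.42). Neither passed after adjustment over all genes tested (adjusted p of 0.603 and 0.697 by limma).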

How the results depend on the processing

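In neurons, 3 members passed an unadjusted p of 0.05 under other pseudocounts, filters and scalings and without limma's trend or with robust estimation, and 4 passed with VST values, with either replicate block and without AM-Veh 1-1 or 1-2 or AM-Allo 2-1 or 2-2, Rps6ka2 being the fourth gene. Mapk3, Rps6ka1 and Elk1 passed in every one of these fits. The replicate block changed no other member's call at an unadjusted p of 0.05. At an adjusted p under 0.05, VST values gave 3 members (Mapk3, Elk1 and Rps6ka2) in place of 0. They also gave 4 members in place of 2 for the difference between cell types, where the scales of the VST values do not cancel. The replicate block in neurons, chosen after seeing the data, gave 3 for that difference. The other genes of the pathway past an unadjusted p of 0.05 in neurons numbered 8, and 20 with the first number as a block. Over all genes, 968, 796, 791 and 765 passed unadjusted in neurons without AM-Veh 1-1, AM-Veh 1-2, AM-Allo 2-1 and AM-Allo 2-2, of 15302 to 15312 tested. In astrocytes 0 to 1 members passed with 1 library left out, where 786 to 1280 of all genes tested did. The 1 member was Elk1 without AM-Allo 1, the fit where 1280 of 15374 genes passed.

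With 1 library left out, log2 fold changes of members that did not pass changed sign, from −0.077 to 0.009 for Braf and −0.026 to 0.010 for Map2k2 in neurons, and in astrocytes from −0.012 to 0.084 for Map2k2, −0.036 to 0.025 for Mapk3, −0.163 to 0.009 for Rps6ka1, −0.023 to 0.006 for Rps6ka2 and −0.065 to 0.020 for Rps6ka3. Over all genes in neurons, the count past an unadjusted p of 0.05 was 872, and 2204 with VST values and 1634 or 1684 with the replicate block by whole or first number, and the adjusted count was 4, with 158, 93 and 104 in these fits, 0 without the trend and 0 to 4 with 1 library left out. In astrocytes the adjusted count was 1, and 0 without the trend or with a mean of at least 50, 4 with robust estimation, 17 with the block by replicate number, which left 0 of the 8 members past the threshold, and 1 to 72 with 1 library left out. The cause of these changes was not tested.

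A gene at the minimum mean of 10 stands on about as many reads, which limits Fosb and lower genes, and 3 libraries against 3 limit the astrocyte tests. Libraries of first number 1 or 2 alone were read as values without a test.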

Other observations

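Likeness of pattern was read as Pearson's correlation of log2 values over the libraries of a cell type, with each group centred on its own mean, among genes whose mean was 100 normalized counts or more. Over the 8 neuron libraries the genes most like Mapk3 were Cuta (0.971), Zfp560 (0.958) and Psmg3 (0.952). Those most like Elk1 were Oxa1l (0.968), Lcorl (0.965) and Fahd2a (0.957), and those most like Rps6ka1 were LOC100909750 (0.974), Sugp2 (0.970) and Fez1 (0.958). In astrocytes, over 6 libraries, those most like Elk1 were Cox7c (0.997), N4bp3 (0.997) and Arhgef37 (0.996). With 11780 and 11784 genes compared over so few libraries, high values arise for any gene, and the libraries share their scaling and, in neurons, their numbering.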
